A study of Mus musculus with 15 samples.

Results

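The Hox genes of the 4 clusters were described across mouse mammary tumours. They were taken as every row of the deposited expression table whose symbol is Hoxa, Hoxb, Hoxc or Hoxd followed by a number, which gave 31 of the 17271 genes. All 15 samples were bulk mammary tumours of p53-NULL genotype on the Balbc strain, from 4 tumour models: 2151R (4 samples), T11 (1 sample), 2225L (2 samples) and 2208L (8 samples). In 2151R, replicates 3 and 4 were titled NT2 and NT, and replicates 1 and 2 were titled 2151R-5310 and 2151R-53ca. In 2208L, replicate 1 carried the library prefix ROSEN, replicates 2 to 5 were titled PBS and replicates 6 to 8 were titled 3day nt. Every PBS title opens with a code starting DH and every 3day nt title with one starting KM. What these codes stand for is not given. In 2225L, replicate 1 carried the prefix CP and replicate 2 the prefix ROSEN. No treatment beyond these words, no age and no animal of origin was given, so p-values measure the spread between these samples, which may in part be technical. Under the CP prefix each model had library numbers of its own, and a difference between models cannot be told apart from one between these series of libraries.

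Hox genes encode homeodomain transcription factors that lie in 4 clusters, one on each of 4 chromosomes, and are numbered by their place in the cluster. Low numbers are used at the head end of the embryo and high numbers towards the tail and the limb tips, and genes of 1 number in different clusters are paralogs. Polycomb proteins keep the clusters silent, trithorax and MLL proteins keep them active, retinoic acid switches on the low-numbered genes, and the proteins bind DNA with TALE partners such as Pbx and Meis. In the mammary gland, the paralogs of group 9 are together needed for development during pregnancy.

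The table held 11 of the 11 Hoxa genes, 9 of the 10 Hoxb genes, 7 of the 9 Hoxc genes and 4 of the 9 Hoxd genes that RefSeq lists. Hoxb1, Hoxc11, Hoxc12, Hoxd1, Hoxd3, Hoxd11, Hoxd12 and Hoxd13 were not analysed here. In RefSeq's GRCm38.p6, the Hoxa cluster spans chr6:52155367-52260880, Hoxb chr11:96194316-96368254, Hoxc chr15:102921131-103036856 and Hoxd chr2:74668225-74765142. By number, 5 members were anterior (1 to 3), 15 central (4 to 8) and 11 posterior (9 to 13). Values are on a log2 scale, centred for each gene on a median, so they show how samples compare for a gene and not which of a pair of genes is more abundant. All values below are such log2 levels or differences of them, and a gene was called where limma's p, Benjamini-Hochberg adjusted over all 17271 genes, was under 0.05.

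The sequences before the starts of Hoxa13, Hoxa10 and Hoxa5 are shown because these 3 genes had the widest differences between 2151R and 2208L in the Hoxa cluster. Each is the 250 bases before a RefSeq start on GRCm38.p6, minus strand of chromosome 6. The Hoxa5 window lies within the RefSeq spans of Hoxa3 and Hoxaas3. Capitals mark matches, on either strand, to the TATA element TATAAA, its variant CATAAA, the GC box GGGCGG or the CCAAT box. Hoxa10 has a pair of annotated starts.
Hoxa13, chr6:52260881-52261130: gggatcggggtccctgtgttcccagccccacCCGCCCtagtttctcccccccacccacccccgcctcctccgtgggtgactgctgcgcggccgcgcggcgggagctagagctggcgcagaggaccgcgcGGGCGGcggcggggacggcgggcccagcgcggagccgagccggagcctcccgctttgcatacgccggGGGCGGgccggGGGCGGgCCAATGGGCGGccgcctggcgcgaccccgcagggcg
Hoxa10, chr6:52240855-52241104: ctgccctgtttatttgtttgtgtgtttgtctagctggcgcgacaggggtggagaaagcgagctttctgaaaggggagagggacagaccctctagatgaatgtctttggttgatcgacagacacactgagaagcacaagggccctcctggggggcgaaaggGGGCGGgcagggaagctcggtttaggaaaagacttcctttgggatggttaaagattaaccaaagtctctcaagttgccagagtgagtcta
Hoxa10, chr6:52234940-52235189: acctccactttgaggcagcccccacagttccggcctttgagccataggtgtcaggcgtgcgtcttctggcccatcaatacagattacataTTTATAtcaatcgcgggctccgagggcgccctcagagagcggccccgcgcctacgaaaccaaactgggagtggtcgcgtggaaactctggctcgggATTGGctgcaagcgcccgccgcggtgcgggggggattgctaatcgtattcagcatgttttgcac
Hoxa5, chr6:52204588-52204837: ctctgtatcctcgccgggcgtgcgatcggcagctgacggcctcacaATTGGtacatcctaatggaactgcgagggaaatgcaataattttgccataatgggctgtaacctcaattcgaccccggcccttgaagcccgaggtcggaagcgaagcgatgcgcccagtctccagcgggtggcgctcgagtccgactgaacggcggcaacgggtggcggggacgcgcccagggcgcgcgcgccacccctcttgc
The Hoxa13 window held 35 CG dinucleotides and 5 matches to GGGCGG, one of which directly follows a CCAAT match. The Hoxa5 window held 28 CG dinucleotides and 1 CCAAT match, and the Hoxa10 windows held 7 and 20. Over all 32851 promoter windows of this length, the median was 6 CG dinucleotides, and over the 17 windows of 16 Hox members it was 13. GGGCGG occurred in 32.7% of all windows and in 7 of the 17 Hox windows. CCAAT occurred in 33.8% and in 9 of 17, TATAAA in 12.4% and in 3 of 17, and CATAAA in 10.8% and in 3 of 17. These matches are descriptions of the letters and carry no measurement of binding.

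**Figure D1:**
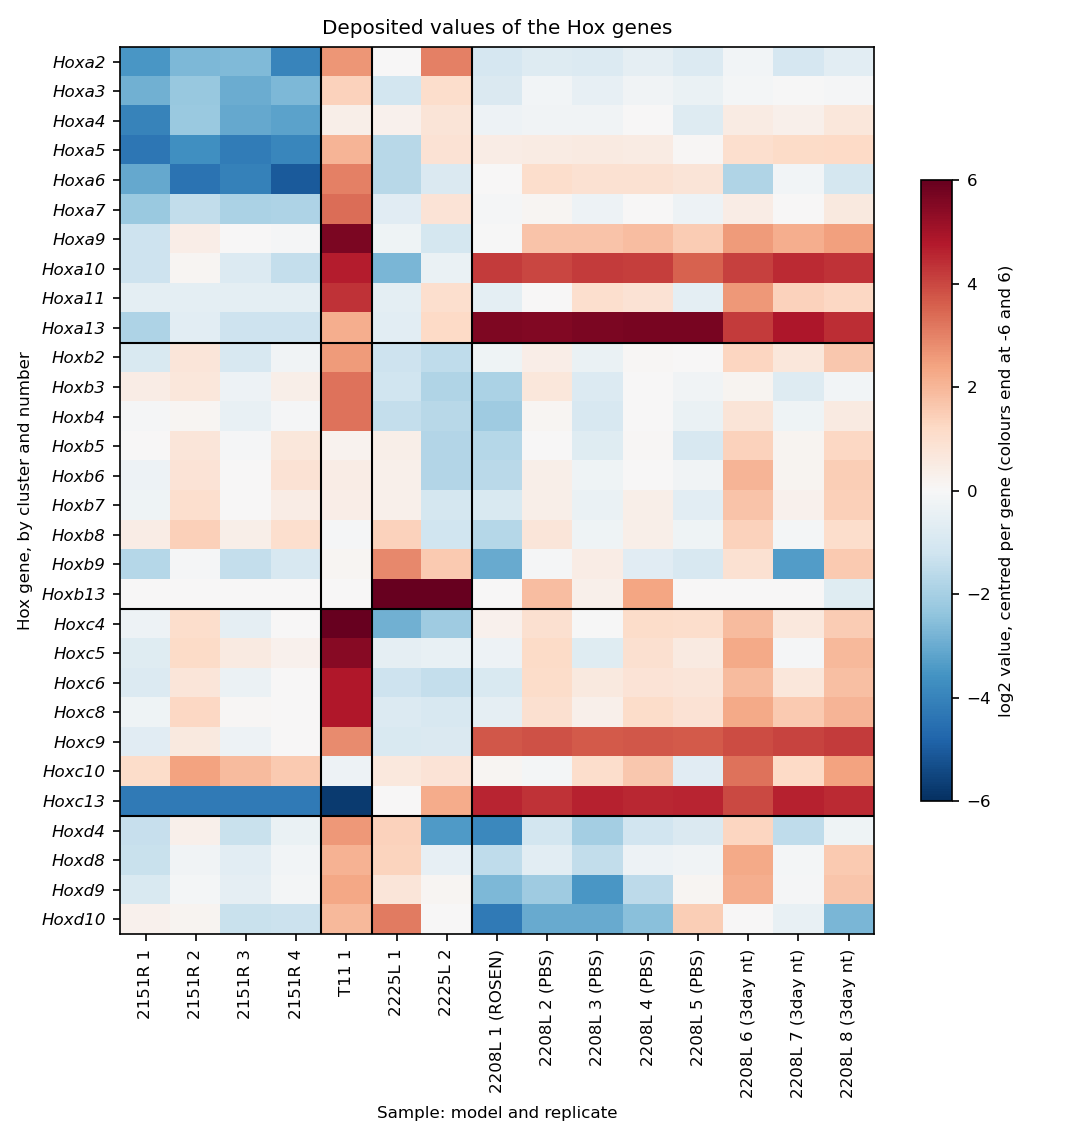
Log2 levels of the Hox genes (rows, by cluster and number) in the 15 samples (columns, by model), each gene centred on a median, with colours ending at -6 and 6. Hoxa2 to Hoxa7 are low throughout 2151R, Hoxa10, Hoxa13, Hoxc9 and Hoxc13 are high throughout 2208L, Hoxb13 is high in both 2225L samples, and T11 is high for most of Hoxa, Hoxc4 to Hoxc8 and Hoxb2 to Hoxb4.

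The first comparison set 2151R against 2208L, the models with the most samples. Hox genes were lower in 2151R or did not pass the test, and most of the lower ones lay in the Hoxa cluster. In limma's fit, 12 of the 31 members were lower, against a background of 22.7% of all genes, and 0 of 31 were higher, against 26.1%. At an unadjusted limma p under 0.05, 14 members were lower and 0 were higher, against 25.4% and 29.8% of all genes. By cluster, 10 of 11 Hoxa genes were lower, and 2 of 7 Hoxc genes, a share (28.6%) near the background. In the other clusters, 0 of 9 Hoxb and 0 of 4 Hoxd genes passed in either direction, also at an unadjusted limma p under 0.05. By number, 3 of 5 anterior, 4 of 15 central and 5 of 11 posterior members were lower. The median difference, 2151R minus 2208L, was -2.47 over Hoxa, -0.88 over Hoxc, 0.10 over Hoxb and 0.41 over Hoxd, and 0.10 over all genes. The groups did not overlap, with 2151R below, for 11 members, 9 of them in Hoxa, against 18.2% of all genes, and above for 0, against 20.6%.

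Hoxa13, which patterns digits and the urogenital tract, read -1.87, -0.62, -1.26 and -1.23 in the 4 samples of 2151R. In 2208L its lowest, median and highest values were 4.19, 5.57 and 5.71. All 8 samples of 2208L lay far above all 4 of 2151R, and the difference was -6.45 (SE 0.40, limma adjusted p = 2.12e-08). Hoxa10, needed for the uterus and its receptivity, read -1.22, 0.11, -0.81 and -1.43 in 2151R and 3.54, 4.17 and 4.48 at the lowest, median and highest of 2208L. These groups did not overlap either, and the difference was -4.97 (SE 0.38, limma adjusted p = 1.84e-07). Hoxa5, needed for lung development, read -4.32, -3.67, -4.18 and -3.89 in 2151R and 0.08, 0.53 and 1.19 at the lowest, median and highest of 2208L. The 4 samples of 2151R were close together and all below 2208L, with a difference of -4.70 (SE 0.37, limma adjusted p = 2.86e-07).

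The other Hoxa genes ran the same way by smaller amounts. Hoxa2, which patterns the branchial arches, differed by -2.47 (SE 0.43, limma adjusted p = 0.000377) and Hoxa3, needed for the thymus, by -2.40 (SE 0.32, 3.58e-05). Among the central genes, Hoxa4 differed by -3.13, Hoxa6 by -4.22 and Hoxa7 by -1.93, all called. Hoxa9, a regulator of blood stem cells and leukaemia, differed by -1.99 (SE 0.44, limma adjusted p = 0.00208), with 1 sample of 2208L, at -0.01, within the range of 2151R. Hoxa11, which patterns the forearm and uterus, was the Hoxa gene that did not pass in the main fit, at -1.35 (SE 0.54, limma adjusted p = 0.0524). Of 19 alternatives, it was called lower under 6, among them median centring and quantile normalization. All 4 samples of 2151R carried the repeated Hoxa11 value of -0.61, as did 2 of 2208L and 1 of 2225L. Within Hoxa the medians by number class were -2.40 (anterior), -3.68 (central) and -3.48 (posterior).

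In the Hoxc cluster, the 2 genes called in the main fit were posterior. Hoxc13, which regulates hair and nail keratins, stood at exactly -4.25 in all 4 samples of 2151R, and at 3.96, 4.54 and 4.63 at the lowest, median and highest of 2208L. What a value repeated across samples stands for is not given in the sources used here, and T11 lay lower still, at -5.75, so the fitted difference of -8.71 (SE 0.30, limma adjusted p = 8.35e-11) is no measure of a fold. Hoxc9, of the trunk group, read -0.70, 0.56, -0.31 and 0.00 in 2151R and 3.67, 3.79 and 4.21 at the lowest, median and highest of 2208L. Its groups were far apart, with a difference of -3.96 (SE 0.20, limma adjusted p = 2.8e-09). Hoxc6, of the thoracic group, read -0.83, 0.73, -0.34 and 0.00 in 2151R and -0.92, 0.79 and 1.89 at the lowest, median and highest of 2208L. These values overlapped, and the difference of -0.95 did not pass (SE 0.44, limma adjusted p = 0.0932). Hoxc4, Hoxc5, Hoxc8 and Hoxc10 ranged from -0.88 to 0.63, and none passed in the main fit. Of 20 alternatives, Hoxc4 was called lower under 5, Hoxc6 under 4 and Hoxc8 under 1. Quantile normalization was among these for Hoxc4 and Hoxc6.

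No Hoxb or Hoxd gene passed between 2151R and 2208L in the main fit, and their widest differences were small beside the spread. Hoxb2, a hindbrain gene, read -0.93, 0.73, -0.95 and -0.20 in 2151R and -0.38, 0.22 and 1.61 at the lowest, median and highest of 2208L, a difference of -0.76 (limma adjusted p = 0.143). Hoxb3 read 0.42, 0.66, -0.28 and 0.34 in 2151R and -1.92, -0.20 and 0.67 at the lowest, median and highest of 2208L, a difference of 0.67 (limma adjusted p = 0.171). Hoxb8, active in blood progenitors and microglia, read 0.47, 1.45, 0.35 and 1.0 in 2151R and -1.73, 0.12 and 1.38 at the lowest, median and highest of 2208L, a difference of 0.67 (limma adjusted p = 0.348). The ranges of the models overlapped for all 3 genes. Of 20 alternatives, Hoxb2 was called lower under 1, without 2151R replicate 2.

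Among the Hoxd genes, Hoxd10, a limb and motor neuron gene, read 0.27, 0.15, -1.32 and -1.29 in 2151R and -4.23, -2.64 and 1.49 at the lowest, median and highest of 2208L. The wide range of 2208L took in all of 2151R, and the difference of 1.26 did not pass (SE 0.98, limma adjusted p = 0.309). Hoxd8 read -1.32, -0.23, -0.64 and -0.16 in 2151R and -1.54, -0.27 and 2.26 at the lowest, median and highest of 2208L, a difference of -0.53 (limma adjusted p = 0.534). Hoxd4 read -1.38, 0.30, -1.35 and -0.39 in 2151R and -3.88, -1.14 and 1.27 at the lowest, median and highest of 2208L, a difference of 0.50 (limma adjusted p = 0.673). Both genes overlapped between the models.

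**Figure D2:**
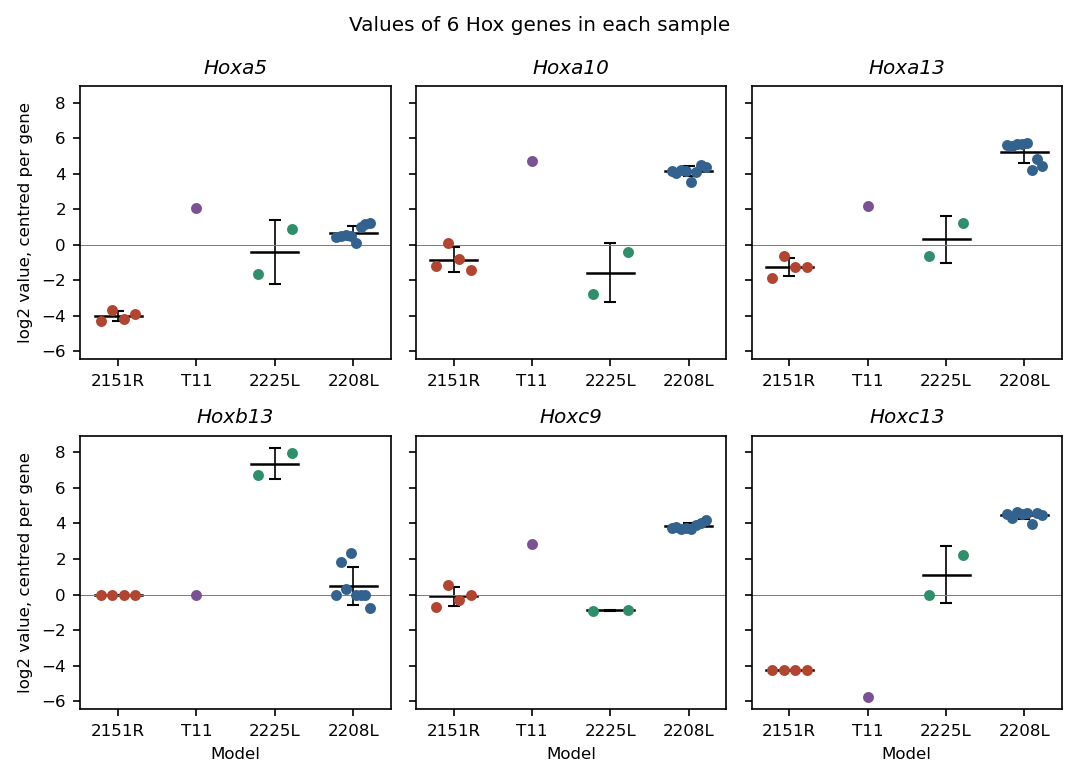
Log2 level of Hoxa5, Hoxa10, Hoxa13, Hoxb13, Hoxc9 and Hoxc13 in each sample by model (points; line, mean; bars, SD; T11 has 1 sample). The 2208L samples of Hoxa13 lie between 4.19 and 5.71, above all other samples, and both 2225L samples of Hoxb13 lie at 6.75 and 7.98, above the rest.

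The genes around the Hoxa cluster were also measured. Of the 6 other measured genes between the Hoxa members, 5 were lower in 2151R: Hotairm1 (-3.59), Hoxaas2 (-2.73), Gm15050 (-3.67), Hoxaas3 (-3.32) and 5730596B20Rik, whose difference lay between these. Hoxa11os, antisense to Hoxa11, stood at -0.98 and did not pass. On the low-numbered side, 2 of the 5 nearest genes were lower, Halr1 at -1.10 (limma adjusted p = 0.0206) and the adaptor gene Skap2 at -1.61 (1.72e-05). Snx10, Cbx3 and Hnrnpa2b1 stood between -0.03 and -0.02. Halr1 carried the repeated value of -2.90 in 2151R replicates 1, 3 and 4 and in 2208L replicate 5, so its difference is no measure of a fold. On the Hoxa13 side, Hibadh, Jazf1 and Tril were lower, at -1.19, -1.26 and -1.60, and Tax1bp1 at -0.11 and Creb5 at 0.84 did not pass. So the differences just outside the cluster were smaller than most of those inside it.

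When the genes placed on GRCm38.p6 were cut into 261 windows of 60 neighbouring genes, the window with all 11 Hoxa genes had the lowest median difference of 2151R from 2208L, -1.06. It starts at chr6:52102949 and its last gene starts at 61179960. Without the 11 Hoxa genes its other 49 genes had a median of -0.65, the eighth lowest. Of these 49, 21 were lower and 4 higher, against 22.7% and 26.1% of all genes. The 49 still include the 6 noncoding genes between the Hoxa members, 5 of which were lower. The lowest window without Hox genes lay on chromosome 9, at -0.83. The Hoxb window, with 9 members, had a median of -0.40 and ranked 23, and -0.52 without them. The Hoxd window had a median of 0.25 and ranked 179, and the Hoxc cluster lay in no full window. These windows are a description, made after the values had been seen.

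**Figure D3:**
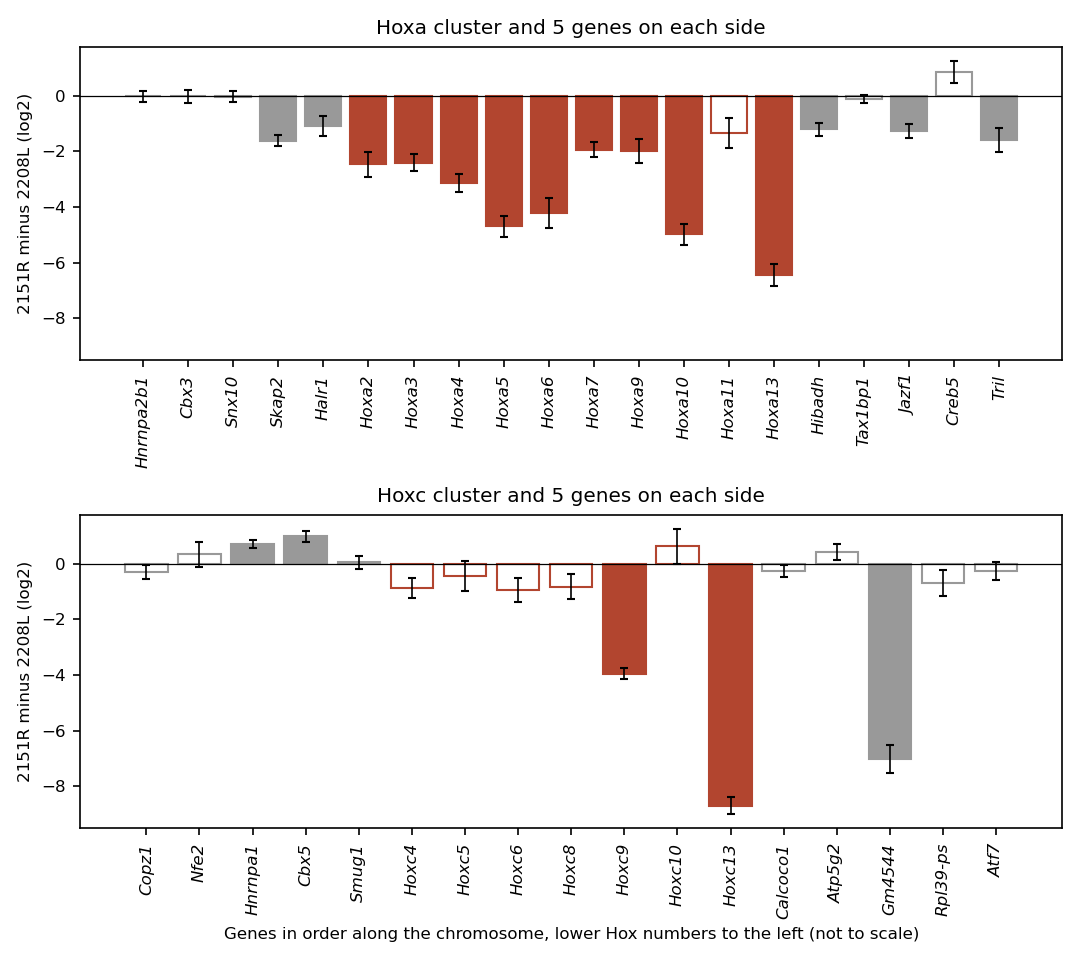
Log2 difference of 2151R minus 2208L (bars from 0, with the SE) at the Hoxa and Hoxc members (red) and the 5 nearest measured genes on each side (grey), in order along the chromosome with lower Hox numbers to the left; open bars were not called. At Hoxa the low values run through the whole cluster and are smaller beyond it. At Hoxc, among the Hox genes, only Hoxc9 and Hoxc13 were called, while Hoxc4 to Hoxc8 lie between -0.95 and -0.43.

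Members share sequence with their neighbours. In RefSeq, 9 members overlap another measured gene, among them Hoxa3, Hoxa4, Hoxa5, Hoxa6, Hoxa11, Hoxb2, Hoxb3 and Hoxb4. Whether reads were assigned by strand is not given in the sources used here, so the split of reads between these genes is uncertain. Of the 12 members called lower in 2151R than in 2208L, Hoxa2, Hoxa7, Hoxa9, Hoxa10, Hoxa13, Hoxc9 and Hoxc13 have no such overlap. Other members without one, such as Hoxb13, Hoxc10 and Hoxd9, were not called. The part of read assignment in the differences was not tested.

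The second comparison set 2225L against 2208L. Hoxb13 was far higher in 2225L, Hoxa10, Hoxa13 and 5 of the 7 Hoxc genes were lower, and of the other posterior Hoxa genes Hoxa9 was lower and Hoxa11 did not pass (-0.54). In limma's fit, 9 members were lower (3 of Hoxa, 1 of Hoxb and 5 of Hoxc), against a background of 17.3%, and 2 were higher, against 15.6%. The median difference was -2.19 over Hoxc, -0.54 over Hoxa, -0.65 over Hoxb, 0.83 over Hoxd and -0.04 over all genes. Of these 11 calls, 6 held under every alternative that tested them: Hoxa10, Hoxa13, Hoxb13, Hoxc4, Hoxc9 and Hoxc13. Leaving out the genes with repeated values leaves Hoxa13, Hoxb13 and Hoxc13 untested. In the same comparison, 3 of the 9 epithelial markers were higher and 5 of the 8 macrophage markers lower in 2225L, and their part in the Hox differences was not tested.

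Hoxb13, a gene of the prostate and tail bud, read 6.75 and 7.98 in 2225L. All 4 samples of 2151R, T11 and 4 of the 8 in 2208L carried the same value, 0.00, and the others of 2208L ran from -0.74 to 2.35. Both samples of 2225L lay above all others, with a difference of 6.89 from 2208L (SE 0.65, limma adjusted p = 6.21e-06), which is no measure of a fold for the same reason as at Hoxc13. Gm53, a gene between Hoxb13 and Hoxb9, read 6.87 and 5.08 in 2225L and was higher by 5.89 (limma adjusted p = 0.00196). Hoxb9, a group 9 gene, read 2.86 and 1.56 in 2225L and -3.37, -0.36 and 1.56 at the lowest, median and highest of 2208L. The highest sample of 2208L reached the lower one of 2225L, and the difference of 2.85 missed the threshold (SE 1.09, limma adjusted p = 0.06) and passed at 3.08 without 2208L replicate 6 (limma adjusted p = 0.0433).

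Hoxa10 read -2.76 and -0.41 in 2225L, below all of 2208L, with a difference of -5.72 (SE 0.49, limma adjusted p = 2.71e-06). Hoxa13 read -0.62 and 1.21, below all of 2208L, with a difference of -4.91 (SE 0.51, limma adjusted p = 1.41e-05). Hoxa3, Hoxa4, Hoxa5, Hoxa6 and Hoxa7, which were lower in 2151R, did not pass here, with differences from -1.33 to 0.52. Alternatives moved 3 of them past the threshold. Hoxa5 was called lower under quantile normalization with all samples kept. It also went from -1.07 to -2.35 without 2225L replicate 2, and Hoxa3 went from 0.28 to 1.37 without 2225L replicate 1. Each of these last fits leaves 1 sample of 2225L. Hoxa6 went from -1.33 to -1.61 without 2208L replicate 6 and to -1.84 without the samples high in muscle genes (limma adjusted p = 0.048 and 0.018). The comparisons share the 2208L samples, so these values stand side by side only. Hoxa2 was higher by 2.23 (SE 0.56, limma adjusted p = 0.00828), from 0.00 and 3.0 in 2225L. Without 2225L replicate 2 this fell to 0.73 and did not pass. Hoxa9 was lower, at -2.41, a call that was also lost without 2225L replicate 2.

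Hoxc9 read -0.90 and -0.86 in 2225L and was lower, at -4.74 (SE 0.26, limma adjusted p = 4.87e-08). Hoxc13 read 0.00 and 2.25 and was lower, at -3.33 (SE 0.39, limma adjusted p = 3.44e-05). For Hoxc9 and Hoxc13 the 2 samples lay below the whole range of 2208L. Hoxc4 read -2.88 and -2.15, against -0.04, 1.01 and 1.92 at the lowest, median and highest of 2208L, and was lower, at -3.44 (SE 0.48, limma adjusted p = 0.00015). Hoxc6, Hoxc8 and Hoxb2 were lower, at -2.19, -1.98 and -1.81. Each of these 3 calls was lost without 2225L replicate 2, and those of Hoxc8 and Hoxb2 also without 2225L replicate 1 or with the library prefix as a covariate. Hoxd10 read 3.14 and 0.03 in 2225L and differed by 3.39 (SE 1.27, limma adjusted p = 0.056). Hoxd9 read 0.74 and 0.13, against -3.51, -0.81 and 2.16 at the lowest, median and highest of 2208L, a difference of 1.18 that did not pass (limma adjusted p = 0.483).

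The paralogs of a number did not move as one. In group 13, Hoxa13 and Hoxc13 were highest in 2208L and Hoxb13 in 2225L. In group 9, Hoxa9 and Hoxc9 were lower than 2208L in both 2151R and 2225L, while Hoxb9 and Hoxd9 passed in neither. In group 10, Hoxa10 was lower in both and Hoxc10 and Hoxd10 passed in neither. In group 4, Hoxa4 was called against 2208L in 2151R and Hoxc4 in 2225L, and 2225L minus 2151R was 3.65 at Hoxa4 and -2.57 at Hoxc4, both called.

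The third comparison set 2225L against 2151R, and it shares its samples with the comparisons above. In limma's fit, 11 members were higher in 2225L (8 of Hoxa, 2 of Hoxb and 1 of Hoxc), against a background of 22.8%, and 3 were lower, against 25.8%. The higher genes included Hoxa2 to Hoxa7, from 1.94 at Hoxa7 to 4.70 at Hoxa2, and Hoxa13 (1.54), Hoxb9 (3.25), Hoxb13 (7.36) and Hoxc13 (5.37). The lower genes were Hoxb3 (-1.79), Hoxc4 (-2.57) and Hoxc9 (-0.77). Of these 14 calls, that of Hoxa13 was lost under 9 of 13 alternatives. Of 14 alternatives, Hoxc9 was lost under 9, Hoxb9 under 7, Hoxb3 under 2 and Hoxa6 under 1. For Hoxa13 the groups overlapped, and 1 sample of each model carried its repeated value of -0.62. For Hoxb13 and Hoxc13 all 4 samples of 2151R carried the repeated value of the gene, so these 2 differences are no measure of a fold. In this comparison 8 of the 9 epithelial markers were higher and 7 of the 8 macrophage markers lower in 2225L, and their part in the Hox differences was not tested.

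T11 is a single sample, so its values have no test. It lay above all other 14 samples for 16 of the 31 members, against 17.4% of all genes, and below them for 1, against 9.47%. Without the 3 samples high in skeletal muscle genes the first count was 17, against 18.7%. The 16 members were 7 of Hoxa, 3 of Hoxb (Hoxb2, Hoxb3 and Hoxb4), 4 of Hoxc (Hoxc4, Hoxc5, Hoxc6 and Hoxc8) and 2 of Hoxd (Hoxd4 and Hoxd9). The median of T11 minus 2208L was 3.72 over Hoxc, 3.42 over Hoxd, 1.69 over Hoxa and 0.28 over Hoxb, and 0.18 over all genes. At least 1 log2 unit above the 2208L mean lay 18 members, against 22.9%, and at least 1 below it 3, against 15.6%. Against the 2151R mean these were 24 members, against 15%, and 2, against 10.5%, and against the 2225L mean 21, against 30%, and 4, against 21.3%.

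Among the posterior genes T11 split. Hoxa9 read 5.67 in T11, Hoxa10 4.70, Hoxa11 4.31 and Hoxc9 2.86, while Hoxc13 read -5.75, the lowest value of any member. Hoxa13 read 2.20 in T11, between 2151R and 2208L, and Hoxb13 its repeated value of 0.00. Along Hoxc, T11 stood at 6.14 for Hoxc4, 5.44 for Hoxc5 and 4.79 for Hoxc6 and Hoxc8, and at -0.32 for Hoxc10. Along Hoxb, it stood at 2.55, 3.24 and 3.28 for Hoxb2, Hoxb3 and Hoxb4 and between -0.06 and 0.43 from Hoxb5 to Hoxb9. In Hoxd, T11 read 2.60 for Hoxd4, 2.11 for Hoxd8, 2.33 for Hoxd9 and 1.95 for Hoxd10. For Hoxd8, 1 sample of 2208L, at 2.26, was above it, and for Hoxd10 1 sample of 2225L, at 3.14.

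Within 2208L, samples titled PBS (4) were compared with those titled 3day nt (3). In limma's fit of these 7 samples, 2 members were higher in PBS, against a background of 17.4%, and 8 were lower, against 16.5%, so the count of higher ones was below the background and the lower ones above it. None of the 10 calls held under every alternative. The mean of the 8 skeletal muscle markers ran from -4.21 to 1.52 in PBS and from 0.40 to 8.98 in 3day nt, so the groups overlapped. This mean was high in replicates 6 and 8 of 3day nt, at 8.98 and 8.43, and not in replicate 7, at 0.40. By limma, 0 of 8 muscle markers were higher and 2 of 8 lower in PBS. Of other markers, 2 of 7 T cell genes (median difference of the 7, -1.56), 1 of 8 fibroblast genes, 1 of 8 macrophage genes and 1 of 9 epithelial genes were lower in PBS, and the 6 adipocyte genes had a median difference of -4.26 with none passing. Without 2208L replicates 6 and 8, which carried the highest muscle values, 0 members passed in either direction, with 1 sample left in 3day nt. The differences there were -0.74 at Hoxa5 (-0.71 with all samples), -0.61 at Hoxa4 (-0.79), 0.79 at Hoxa13 (1.16), 1.07 at Hoxa6 (1.93), -0.54 at Hoxd8 (-1.90) and -1.70 at Hoxd9 (-3.01). The count of lower members was 2 without replicate 6, 0 without replicate 8, 4 without replicate 2 or replicate 3, and 15 without replicate 7. The part of muscle RNA or of the other cell types in these differences was not tested. The titled subsets cannot be told apart from the DH and KM title codes and the library numbers that go with them.

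Hoxd9 read -2.12, -3.51, -1.55 and 0.13 in PBS and 2.16, -0.06 and 1.65 in 3day nt. One PBS sample fell within the 3day nt range, and the difference was -3.01 (SE 0.91, limma adjusted p = 0.0432). Hoxa6 read 1.04, 0.92, 0.92 and 0.80 in PBS and -1.82, -0.15 and -1.07 in 3day nt. The groups did not overlap, and the difference was 1.93 (SE 0.36, limma adjusted p = 0.0103). Hoxd8 read -0.62, -1.49, -0.30 and -0.23 in PBS and 2.26, -0.12 and 1.57 in 3day nt. These groups did not overlap, and the difference was -1.90 (SE 0.59, limma adjusted p = 0.048). Hoxa13 was higher in PBS by 1.16 (SE 0.17, limma adjusted p = 0.00564), with 5.55, 5.65, 5.68 and 5.71 against 4.19, 4.85 and 4.42. The other members lower in PBS were Hoxa4, Hoxa5, Hoxa9, Hoxb2, Hoxb5 and Hoxc8, from -1.32 at Hoxb5 to -0.71 at Hoxa5.

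**Figure D4:**
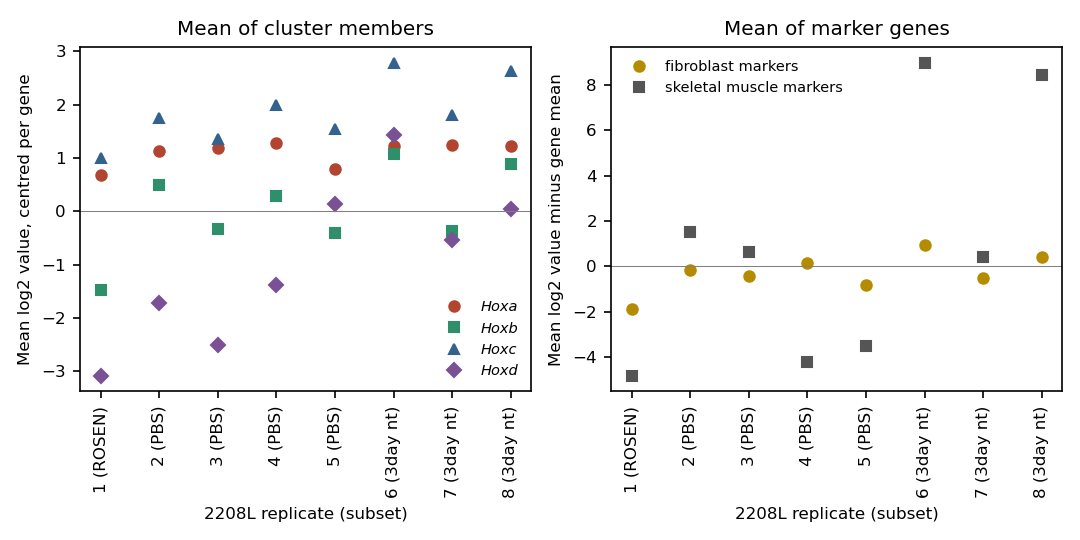
Mean log2 level of the Hox members of each cluster, and of the fibroblast and skeletal muscle markers, in each of the 8 samples of 2208L. The Hoxa mean stays between 0.69 and 1.28, the Hoxd mean runs from -3.08 to 1.42, and the muscle mean is highest in replicates 6 and 8.

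The cluster means varied to different degrees among the 8 samples of 2208L. The mean of the 11 Hoxa members ran from 0.69 to 1.28 and that of the 7 Hoxc members from 0.99 to 2.78. That of the 9 Hoxb members ran from -1.48 to 1.07 and that of the 4 Hoxd members from -3.08 to 1.42. A mean can hide opposite moves of its members. Between PBS and 3day nt, 2 of 11 Hoxa genes were higher and 3 lower in PBS, beside backgrounds of 17.4% and 16.5%. In the other clusters 0 were higher, and 2 of 9 Hoxb, 1 of 7 Hoxc and 2 of 4 Hoxd genes were lower. Replicate 1 had the lowest mean for Hoxa, Hoxb, Hoxc and Hoxd and also the lowest mean of the fibroblast (-1.86), endothelial (-1.06) and skeletal muscle (-4.82) markers, and it is the ROSEN library of 2208L. Replicate 6 had the highest mean for Hoxb, Hoxc and Hoxd and the highest mean of the fibroblast (0.93), muscle (8.98), endothelial (0.30), macrophage (0.41) and T cell (1.02) markers. The part of these cell types or of the library prefix in the Hox levels was not tested.

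The samples are whole tumours, and fewer cells of a type and less RNA per cell cannot be told apart. The marker counts below for 2151R against 2208L stand beside backgrounds of 26.1% higher and 22.7% lower over all genes. Epithelial markers differed between the models: 7 of 9 were lower in 2151R than in 2208L, with Cldn7 at -8.34 and Cldn3 at -7.33, and 2 were higher, Krt5 and Krt19. The mean of the 9 ran from -2.76 to -1.71 in 2151R, was -6.88 in T11, and ran from 3.33 to 3.44 in 2225L and from 0.47 to 2.07 in 2208L. These samples are labelled mammary tumours, and because values are centred, no marker can be read as absent. Fibroblast markers were higher for 3 of 8 in 2151R (Dcn by 3.56, Pdgfra by 2.10), macrophage markers higher for 6 and lower for 1 of 8 (Cd14 at -3.76, Mrc1 at 2.28), and endothelial markers higher for 6 of 7 (Tek by 1.52, Cdh5 by 1.52). Adipocyte markers were higher for 3 of 6 (Pck1 by 4.76, while Cfd at 4.32 did not pass). T cell markers were higher for 2 of 7 (Cd28 by 2.78, Cd4 by 1.30), a share near the background. Of the 8 skeletal muscle markers 0 passed by limma (Ckm -3.81, Acta1 -3.52), with sample means from -4.24 to 6.0 in 2151R and from -4.82 to 8.98 in 2208L. Without the 3 samples high in muscle genes, 12 Hox members were again lower in 2151R and 0 higher. The part of cell makeup in the Hox differences was not tested.

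Genes that work with or on the Hox clusters were counted by list for 2151R against 2208L, beside backgrounds of 26.1% higher and 22.7% lower. Of 8 TALE cofactors, 4 were higher and 2 lower. Meis1, the Hox partner of blood cells, was higher by 2.52 (SE 0.19, limma adjusted p = 1.39e-07) in 2151R and lower, at -2.36 in 2225L, and Pknox2 was lower, at -2.25 and -3.24. Of 18 Polycomb genes, 4 were higher and 5 lower, with Phf19, a PRC2 accessory subunit, higher by 4.37 (limma adjusted p = 5.19e-09). Of 12 trithorax and MLL genes, 5 were higher and 0 lower, with Psip1 at 1.43 and Kmt2d at 1.28. Of 17 retinoic acid genes, 3 were higher, among them Crabp1, a retinoic acid carrier, by 5.27, and 6 lower, among them Aldh1a3, which makes retinoic acid, at -2.98. In 2225L against 2208L, 8 of the 17 were higher and 0 lower, beside backgrounds of 15.6% and 17.3%. Of the 7 measured Hox cluster noncoding genes, 4 were lower in 2151R and 0 higher, and in 2225L 2 were higher and 0 lower. The 8 listed ParaHox and Evx genes were not analysed here.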

How the data were processed

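RNA from 15 tumours was captured by poly(A) with the Illumina TruSeq mRNA kit, per the labels' protocols. The submitters' processing notes name STAR, Salmon and the build mm10, with no roles. The deposited table holds log2 values, centred by the authors per gene on a median, for 17271 genes. The scale before the log, any offset, the samples used for centring and the depth of each sample are not given in the sources used here, so no counting interval is given. Exact repeated values occurred in 727 genes (4.21%) and in 5 Hox members (Hoxa11, Hoxa13, Hoxb13, Hoxc13 and Hoxd10).

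Groups came from the sample titles. Values were tested as deposited with limma 3.58.1 in R 4.3.3 (lmFit, eBayes without trend): 1 fit of all 15 samples with 4 model means, and 1 of the 7 samples titled PBS or 3day nt. P-values were Benjamini-Hochberg adjusted over all genes, and the script was tested on simulated data. Genes were placed by symbol on RefSeq GRCm38.p6 (16183 genes, 93.7%, with all 31 members). Promoter windows and coordinates are RefSeq's.

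Per-sample values are given for, in each cluster, the 3 members with the widest difference of 2151R from 2208L and the 2 with the widest of 2225L from 2208L, for the 3 widest of PBS against 3day nt, and for T11. Hoxa13 in PBS against 3day nt, Hoxa2 in 2225L, Gm53 and Halr1 were chosen for this after their values were seen. Of each list the 2 genes with the widest difference of 2151R from 2208L are named, and the 5 nearest genes on each side of a cluster were taken. Some genes are counted but their own values are not reported here. The members, lists, windows and tests were chosen with earlier results of these data known. Alternatives were other scalings, a trend, leaving out repeated-value genes or each replicate, titled subsets, a library prefix covariate, pairwise fits and, chosen after seeing the data, leaving out the 3 samples high in skeletal muscle genes (2151R replicate 3 and 2208L replicates 6 and 8).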

Additional observations from a re-analysis of the deposited data

Results flagged for a closer look

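Of 90 groups of 4 to 8 samples of a Hox gene that were examined, 6 held a sample far from the others by Dixon's criterion, where chance alone flags about 1 in 20 groups, or 4.5. In 2208L, Hoxa9 in replicate 1 was -0.0135, with the others from 1.5 to 2.57, and Hoxc6 in the same sample was -0.92, with the others from 0.59 to 1.89. Hoxc13 in 2208L replicate 6 was 3.96, with the others from 4.34 to 4.63. Within the PBS samples, Hoxa5 in replicate 5 was 0.0804 (others 0.47 to 0.55), Hoxc4 in replicate 3 was -0.0413 (others 0.98 to 1.11) and Hoxd10 in replicate 5 was 1.49 (others -3.0 to -2.53).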

How the results depend on the processing

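The 12 members lower in 2151R than in 2208L were called under every alternative that tested them. Their count ran from 12 to 16 when a replicate was left out and from 10 to 15 otherwise. It was 10 where genes with a repeated value were left out, which removes Hoxa13 and Hoxc13, and the count of higher members was 0 throughout. For 2225L against 2208L, the count of higher members was 2, and became 1 without repeated-value genes, 4 with the library prefix as a covariate and 2 to 4 when a replicate was left out, 4 being without 2208L replicate 6 (Hoxb9 and Hoxd10 passed as well). The count of lower members, 9, ran from 6 to 11. For 2225L against 2151R, the 3 lower members became 1 with the prefix covariate, 5 without the muscle-high samples and 2 to 3 when a replicate was left out, and the 11 higher ones ran from 8 to 11. For PBS against 3day nt, the 2 higher members became 1 without repeated-value genes, 0 without the muscle-high samples and 2 to 3 when a replicate was left out. The 8 lower ones became 0 without the muscle-high samples and ran from 0 to 15 when a replicate was left out. The cause was not tested. Where 3day nt or 2225L had 1 sample left, it is assumed to vary like the other groups. No call reversed. No paired analysis was possible because no replicate number in the titles is shared between groups. Depth is unknown, which limits what can be read from low levels. A repeated value was the lowest value of its gene for Hoxa11 but not for Hoxa13, Hoxb13, Hoxc13 and Hoxd10.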

Other observations

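Among the genes beside the Hox clusters, Igf2bp1, an RNA-binding protein gene among the 5 nearest on one side of Hoxb, was lower than in 2208L, at -10.45 in 2151R and -10.04 in 2225L. Gm4544, beside Hoxc, was lower, at -7.03 in 2151R. Halr1, beside Hoxa, read 4.09 and 5.13 in 2225L and was higher than in 2208L by 6.52 (limma adjusted p = 4.5e-07). In 2208L replicate 5 it carried its repeated value of -2.90, so this difference is no measure of a fold. No hypothesis was tested on these values.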
